A study of Mus musculus with 32 samples.

Results

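The 38 mouse Hox genes described here were followed across 8 stages of differentiation in J1 embryonic stem cell (ESC) cultures, which come from mouse strain 129S4/SvJae. They are defined by gene symbol and matched by Entrez identifier, a rule that uses no measured value, and they are 38 of the 20612 genes listed in at least 1 library. They comprise 10 genes of the Hoxa cluster (Hoxa2 to Hoxa7, Hoxa9, Hoxa10, Hoxa11 and Hoxa13), 10 of Hoxb (Hoxb1 to Hoxb9 and Hoxb13), 9 of Hoxc (Hoxc4 to Hoxc6 and Hoxc8 to Hoxc13) and 9 of Hoxd (Hoxd1, Hoxd3, Hoxd4 and Hoxd8 to Hoxd13). The cultures were exposed to the plastic monomers bisphenol A, F or S (BPA, BPF and BPS), each at 100 nM, or to dimethyl sulfoxide (DMSO) as vehicle, with 1 library sequenced for each stage and treatment and 32 in all. The 8 stages were undifferentiated ESCs on day 0, embryoid bodies (EBs, cell balls in suspension) on days 4, 6, 9, 12 and 20, day 8 EBs after 4 days with retinoic acid (RA EBs), and a day 10 monolayer of neural progenitor cells (NPCs). The EBs of days 6 to 20 are called the global branch, and RA EBs and NPCs the neural branch. Levels are FPKM, fragments per kilobase of transcript scaled to the size of the library, which can be compared between genes, and an FPKM listed as 0 is a gene not listed for that library.

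Hox genes encode homeodomain transcription factors that give cells along the body axis their position. In each cluster all genes are read in the same direction, and the gene with the lowest paralog number lies at the 3′ end. Genes at the 3′ end are switched on earlier and reach further forward, into the hindbrain, while genes at the 5′ end come on later and mark the trunk and tail. Retinoic acid turns Hox genes on from the 3′ end through receptors bound to DNA, whereas the forebrain and midbrain express none of them. In stem cells Polycomb proteins keep the clusters silent.

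On mouse assembly GRCm38.p6, the Hoxa genes span chromosome 6, 52162417 to 52260880 on the minus strand, and the Hoxb genes chromosome 11, 96194316 to 96368254 on the plus strand. The Hoxc genes span chromosome 15, 102921131 to 103036856, and the Hoxd genes chromosome 2, 74668225 to 74765142, both on the plus strand. The spans measure 98.5, 173.9, 115.7 and 96.9 kb. Promoter windows, which run from upstream of a gene's start to shortly after it, were found for 22 of the 38 genes, 24 windows in all, in a RefSeq table of the same assembly. The 6 windows printed here belong to genes on which the results turn. Hoxb1 was transient in EBs, Hoxb4 was higher with bisphenols at several stages, Hoxa5, Hoxa7 and Hoxa9 lie on either side of the steepest drop in the Hoxa cluster, and Hoxd4 held matches to more than 1 motif. Capitals mark matches to AGGTCA or AGTTCA, the core of retinoic acid receptor sites, to TGATNGAT, a PBX-HOX site, or to TTTATGG, a CDX site, on either strand. Matches to different motifs could overlap.
Hoxb1, chr11:96365508-96365807, plus strand: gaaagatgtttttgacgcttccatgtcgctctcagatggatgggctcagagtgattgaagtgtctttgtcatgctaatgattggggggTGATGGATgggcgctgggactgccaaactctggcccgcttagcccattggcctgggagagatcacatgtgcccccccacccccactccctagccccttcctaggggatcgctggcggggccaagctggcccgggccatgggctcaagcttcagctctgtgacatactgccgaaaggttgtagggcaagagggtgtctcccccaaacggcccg
Hoxb4, chr11:96318017-96318316, plus strand: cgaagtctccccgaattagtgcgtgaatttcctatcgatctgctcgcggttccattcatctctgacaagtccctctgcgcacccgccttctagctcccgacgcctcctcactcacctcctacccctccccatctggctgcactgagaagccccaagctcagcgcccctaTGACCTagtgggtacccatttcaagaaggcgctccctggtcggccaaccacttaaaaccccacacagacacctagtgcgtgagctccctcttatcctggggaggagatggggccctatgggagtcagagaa
Hoxa5, chr6:52204538-52204837, minus strand: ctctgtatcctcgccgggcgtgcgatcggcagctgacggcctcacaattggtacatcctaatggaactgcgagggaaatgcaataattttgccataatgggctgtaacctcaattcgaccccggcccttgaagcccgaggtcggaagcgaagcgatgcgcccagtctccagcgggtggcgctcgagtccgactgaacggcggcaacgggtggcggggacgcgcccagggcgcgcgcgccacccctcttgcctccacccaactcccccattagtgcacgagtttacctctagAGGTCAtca
Hoxa7, chr6:52218524-52218823, minus strand: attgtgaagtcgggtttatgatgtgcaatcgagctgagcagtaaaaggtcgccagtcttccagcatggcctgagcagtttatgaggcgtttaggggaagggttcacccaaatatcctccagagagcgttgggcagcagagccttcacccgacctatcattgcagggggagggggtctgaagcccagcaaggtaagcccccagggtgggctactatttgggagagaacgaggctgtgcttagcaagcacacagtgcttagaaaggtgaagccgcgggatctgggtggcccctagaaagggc
Hoxa9, chr6:52227321-52227620, minus strand: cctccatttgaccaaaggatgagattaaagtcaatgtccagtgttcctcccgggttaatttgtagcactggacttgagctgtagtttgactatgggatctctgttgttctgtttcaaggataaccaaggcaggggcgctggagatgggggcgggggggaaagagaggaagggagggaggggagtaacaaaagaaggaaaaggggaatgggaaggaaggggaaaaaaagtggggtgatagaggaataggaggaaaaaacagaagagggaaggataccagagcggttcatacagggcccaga
Hoxd4, chr2:74721728-74722027, plus strand: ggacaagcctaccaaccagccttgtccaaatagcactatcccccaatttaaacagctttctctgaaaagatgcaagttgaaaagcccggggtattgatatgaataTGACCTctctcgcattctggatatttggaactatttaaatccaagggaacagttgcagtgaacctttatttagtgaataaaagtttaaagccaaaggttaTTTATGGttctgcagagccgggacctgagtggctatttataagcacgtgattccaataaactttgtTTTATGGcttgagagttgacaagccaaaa

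AGGTCA occurred in 7 of the 24 Hox windows (29.2%), against 16.3% of all 32851 windows in the table. TGATNGAT occurred in 3 Hox windows (12.5%), against 2.1% of all windows, and TTTATGG in 1 (4.17%), against 2.75%. AGTTCA occurred in 2 (8.33%), against 14%. Of the Hoxb and Hoxc genes only Hoxb1, Hoxb4, Hoxb8 and Hoxc4 had a window, so these shares describe mainly Hoxa and Hoxd. Of the 14 windows of genes that were higher in RA EBs in the test described further on, 6 held AGGTCA, and the 10 other Hox windows, of which 1 held it, belong to genes of paralogs 9 to 13 that were too low to test. The median GC content was 57.7% in Hox windows and 52.7% in all windows, and the ratio of observed to expected CpG was 0.63 and 0.38. A match is a string of letters and does not show that a factor binds there.

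Libraries held 9574833 to 11070149 expected counts, of which Hox genes took between 0.000185% (19 counts, BPF at EB day 4) and 0.386% (38693 counts, BPA in NPCs). All 38 genes were listed in at least 2 libraries, Hox genes listed in all 32 numbered 2, and 28 passed the filter of a CPM (count scaled to library size) of at least 1 in at least 4 libraries. The 10 that did not pass were Hoxa9, Hoxa10, Hoxa11, Hoxa13, Hoxc9, Hoxc11, Hoxd10, Hoxd11, Hoxd12 and Hoxd13, all of paralog groups 9 to 13. Since a stage has 4 libraries, a single stage could carry a gene past the filter. The neural branch did so for Hoxa6, Hoxa7, Hoxb6, Hoxb7, Hoxc5, Hoxc6, Hoxc8, Hoxd1 and Hoxd4. ESCs did so for Hoxc10 and Hoxc12. A call that such a gene was higher in those stages was largely set by the filter, and the counts below include such calls. 8 pluripotency genes summed to 11.3 to 16.1 FPKM in NPCs and 2038 to 2112 FPKM in ESCs. Neuron genes summed to 1807 to 1913 FPKM in NPCs and 254 to 315 FPKM in RA EBs, 10 of 10 being higher in NPCs. Of 12 neural progenitor genes 5 were lower there and none was higher, where 17.8% of all genes were higher and 17% lower. The EB day 4 library with BPS stood apart, with a Hox sum of 3.67 FPKM, against 0.88 to 1.61 FPKM in the other 3 libraries of that day. Comparisons with EB day 4 called the same 15, 4 and 26 Hox genes with and without it. Within a stage the 4 libraries differ in treatment, so an SD given for a stage includes any effect of treatment, and p-values measure only the spread between these libraries.

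The Hox sum was lower at EB day 4 than in ESCs, stayed low to EB day 6, was higher at each later EB stage and was highest in the neural branch. It averaged 23.3 ± 0.73 FPKM in ESCs, 1.82 ± 1.27 FPKM at EB day 4, 2.11 ± 0.52 FPKM at day 6, 9.28 ± 2.34 FPKM at day 9, 17.1 ± 6.2 FPKM at day 12 and 44.0 ± 20.9 FPKM at day 20 (SD, n = 4 libraries per stage). RA EBs reached 1464 ± 60.9 FPKM and NPCs 1671 ± 82.6 FPKM. In bulk RNA, fewer cells with a gene and less RNA per cell cannot be told apart. The highest mean fell in RA EBs for 13 genes, in NPCs for 12, in ESCs for 9, at EB day 20 for 2 and at EB day 12 for 2. Means of 1 FPKM or more were reached by 5 Hox genes in ESCs, none at EB days 4 and 6, 2 at day 9, 5 at day 12, 12 at day 20, 23 in RA EBs and 21 in NPCs.

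**Figure D1:**
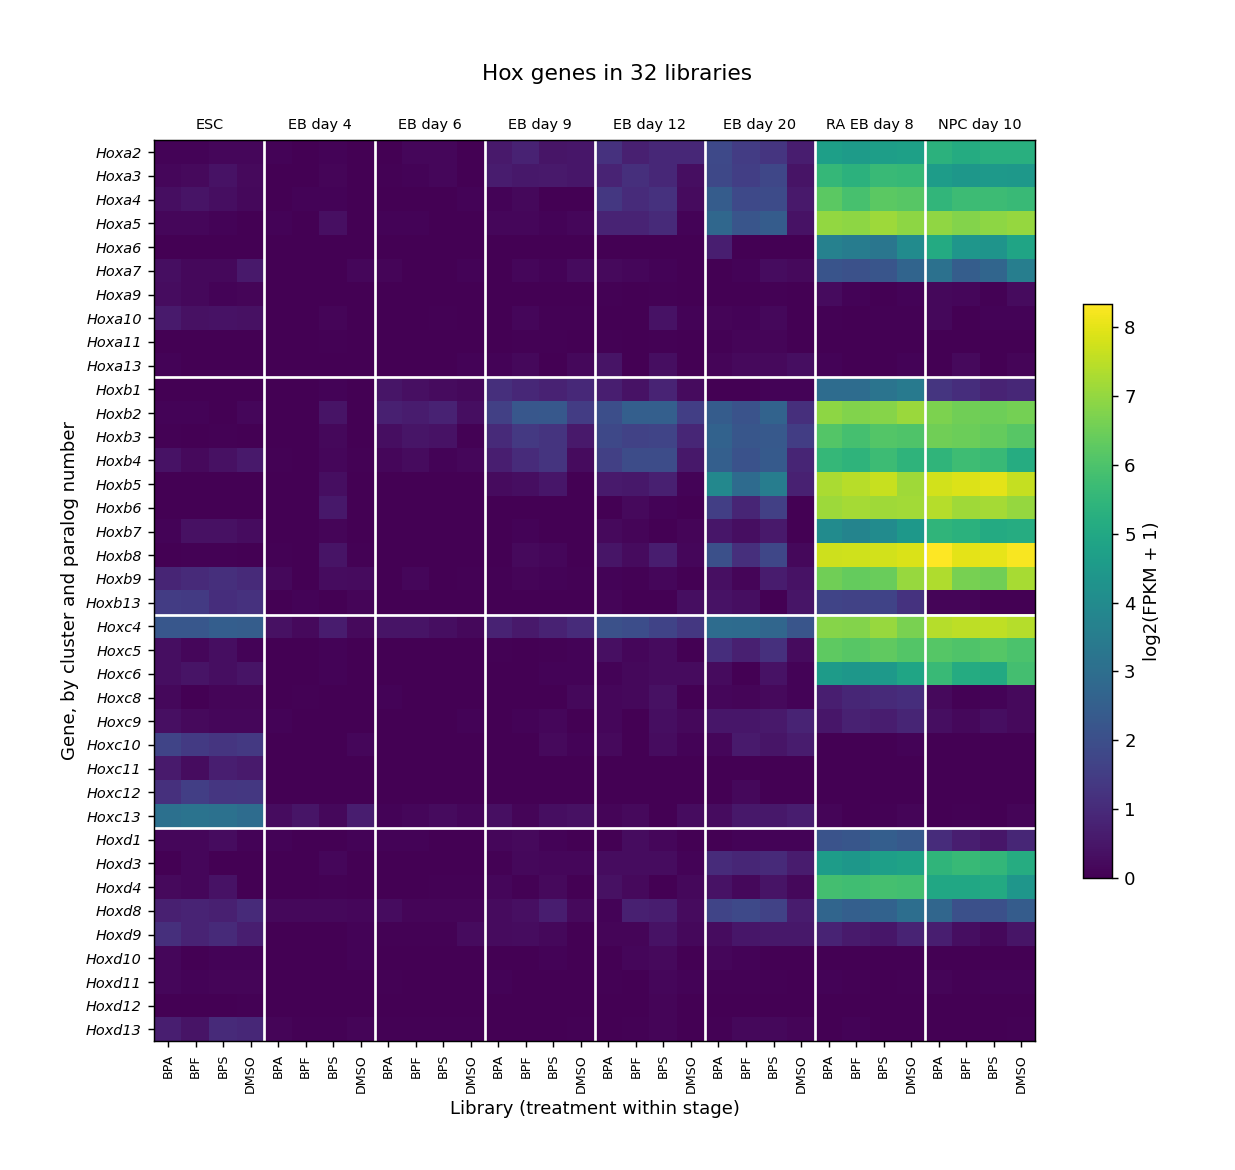
Level of each of the 38 Hox genes (rows, by cluster and paralog number) in each of the 32 libraries (columns, by stage and treatment), as log2(FPKM + 1). Levels are high in the 8 libraries of RA EBs and NPCs down to paralog 9 of Hoxb and paralog 7 of Hoxa, and in ESCs the brightest row is Hoxc13.

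The Hox RNA of ESCs came mainly from paralogs 9 to 13 and from the Hoxc cluster. Paralogs 9 to 13 (16 genes) summed to 16.1 ± 0.98 FPKM, paralogs 4 to 8 (15 genes) to 6.77 ± 0.61 FPKM and paralogs 1 to 3 (7 genes) to 0.472 ± 0.139 FPKM. Hoxc genes made up 16.1 FPKM of the 23.3 FPKM. Hoxc13, a regulator of hair and nail formation, had 7.46, 8.00, 7.62 and 6.69 FPKM with BPA, BPF, BPS and DMSO. Hoxc4, at the 3′ end of the same cluster, had 3.82, 3.82, 4.67 and 4.49 FPKM in the same order. Hoxc10 averaged 1.75 ± 0.38 FPKM, Hoxc12 1.56 ± 0.28 FPKM and Hoxb13 1.47 ± 0.31 FPKM, and no other Hox gene averaged 1 FPKM. The gene nearest below was Hoxb9 at 0.995 ± 0.155 FPKM. Across the 38 genes Spearman's rho between mean level and paralog number was 0.32 in ESCs, with 0.58 in Hoxb, 0.40 in Hoxc, -0.07 in Hoxd and -0.20 in Hoxa, a description over genes that share libraries.

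At EB day 4 Hox RNA was lower than in ESCs. Of 28 Hox genes tested 15 were lower than in ESCs and none was higher by edgeR's quasi-likelihood test (adjusted p under 0.05 and a log2 change of at least 1), where 13.4% of all 15632 genes tested were lower and 14.3% higher. Hoxc10 and Hoxc12 passed the filter only through ESCs, so their lower calls were largely set by it. Hoxc13 did not pass the filter in the branch fit, which left out ESCs and EB day 4. The median log2 change was -1.83 for the 28 genes and 0.00 for all genes. Hoxc13 had 0.20, 0.40, 0.12 and 0.60 FPKM at EB day 4 with BPA, BPF, BPS and DMSO, all below every ESC library (log2 change -4.40 ± 0.34 SE, adjusted p = 3.1e-12). Hoxc4 averaged 0.282 ± 0.184 FPKM at EB day 4 and 4.20 ± 0.45 FPKM in ESCs (-3.69 ± 0.27, adjusted p = 2.3e-12). Hoxc10 changed by -4.62 ± 0.59, Hoxd9 by -4.07 ± 0.54, Hoxb13 by -3.83 ± 0.54 and Hoxb9 by -2.69 ± 0.45. Hoxc12 had no counts in the EB day 4 libraries and was at least 17.6-fold lower there, computed against a floor of 3 counts over the group. The ranges of the 2 stages were apart for these 7 genes. Of the lower genes, Hoxa3, Hoxb4, Hoxb7, Hoxc5 and Hoxd4 each lost their call when 1 of the bisphenols was left out, Hoxc12 lost its call with DESeq2, and limma on log2(FPKM + 1) called 5. Paralogs 9 to 13 made up 41.8%, 58.0%, 13.6% and 70.8% of the Hox sum at EB day 4 with BPA, BPF, BPS and DMSO, against 72.4%, 70.7%, 66.9% and 65.9% in ESCs, so the share with DMSO was not lower.

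Between EB days 4 and 6 few Hox genes differed, 3 being higher and 1 lower at day 6 of 28 tested, shares near those of all genes (10.4% higher and 8.53% lower). Hoxb1, which specifies a single segment of the hindbrain, had 0.40, 0.26, 0.18 and 0.13 FPKM at day 6 with BPA, BPF, BPS and DMSO, against 0.05 FPKM with BPS and 0 in the other 3 libraries at day 4 (log2 change 2.33 ± 0.51, adjusted p = 0.00038). Hoxb2 and Hoxb3, hindbrain genes next to it, were higher as well (2.02 ± 0.78, adjusted p = 0.031, and 2.11 ± 0.74, adjusted p = 0.019), although their ranges overlapped and both calls were lost without BPA or without BPF. Hoxc13 was lower (-1.2 ± 0.46, adjusted p = 0.028), a call lost without BPA, BPF or DMSO. The count was 1 without BPA and 2 without BPF. All 4 were below 1 FPKM on average at both days.

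Between days 6 and 9 genes of paralogs 1 to 4 rose, with at least 1 from each cluster. At day 9 Hoxb2 had 1.99, 3.77, 3.88 and 1.77 FPKM with BPA, BPF, BPS and DMSO, against 0.68, 0.56, 0.74 and 0.23 FPKM at day 6 (2.18 ± 0.43, adjusted p = 0.00018). Hoxb3 averaged 1.11 ± 0.48 FPKM at day 9 and 0.25 ± 0.16 FPKM at day 6 (1.96 ± 0.41, adjusted p = 0.00033). In all, 8 genes were higher and none was lower, of 28, where 10.5% of all genes were higher and 3.86% lower. The others were Hoxa3 (2.45 ± 0.60), Hoxb4 (2.38 ± 0.62), Hoxa2 (2.35 ± 0.46), Hoxb1 (1.72 ± 0.35), Hoxc4 (1.22 ± 0.36) and Hoxd3, which had no counts at day 6 and was at least 3.73-fold higher. Hoxb1 was highest in EBs at this day, at 0.943 ± 0.188 FPKM.

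From day 9 to day 12, 4 Hox genes of paralogs 4 and 5 were higher and none was lower, of 28, where 7.29% of all genes were higher and 2.25% lower. Hoxa4, a gene of the hindbrain to spinal cord boundary, had 1.54, 1.04, 1.3 and 0.19 FPKM at day 12 with BPA, BPF, BPS and DMSO, against 0.06, 0.12, 0 and 0 FPKM at day 9 (3.25 ± 0.65, adjusted p = 0.00028). Hoxc4 averaged 2.45 ± 0.73 FPKM at day 12 and 0.745 ± 0.229 FPKM at day 9 (1.62 ± 0.25, adjusted p = 6.2e-06). Hoxa5 (2.30 ± 0.83, adjusted p = 0.03) and Hoxb4 (1.25 ± 0.39, adjusted p = 0.012) were called too, but neither was without BPA or without BPF, and Hoxa5 was not without BPS either. Without BPA 2 genes were called. Hoxb1 was at 0.472 ± 0.259 FPKM at day 12 (-0.97 ± 0.32), which with Hoxa2 (0.79 ± 0.31) and Hoxb3 (0.78 ± 0.29) had an adjusted p under 0.05 but fell short of the log2 change of 1 that a call needs.

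From day 12 to day 20 the increases of Hoxb5 and Hoxb6 were the largest among called Hox genes, and Hoxb1 fell. In all, 13 Hox genes were higher and 1 was lower, of 28, where 17.3% of all genes were higher and 8.62% lower. Hoxb5, a gene of neck and forelimb levels, averaged 7.90 ± 5.62 FPKM at day 20 and 0.423 ± 0.264 FPKM at day 12 (3.90 ± 0.60, adjusted p = 2.3e-05), with the 4 day 20 libraries above all 4 of day 12. Hoxb6 was at 1.19 ± 0.96 FPKM at day 20 and 0.055 ± 0.071 FPKM at day 12 (3.17 ± 0.83, adjusted p = 0.0036), Hoxa5 at 3.57 ± 2.37 and 0.655 ± 0.416 FPKM (2.23 ± 0.45), and Hoxb8 at 1.72 ± 1.33 and 0.323 ± 0.216 FPKM (2.16 ± 0.59). The ranges of the 2 days overlapped for these 3, since the DMSO library of day 20 lay within the day 12 range. Hoxc4 had a mean of 5.68 ± 1.46 FPKM at day 20 (1.08 ± 0.18) and Hoxd8, a gene of the trunk, one of 1.89 ± 0.91 FPKM (2.08 ± 0.40). Hoxa3, Hoxa4, Hoxb9 and Hoxc10 each lost their call when 1 treatment was left out. Hoxb1 had 0, 0, 0.05 and 0.05 FPKM at day 20 with BPA, BPF, BPS and DMSO, against 0.61, 0.33, 0.76 and 0.19 FPKM at day 12 (-2.86 ± 0.46, adjusted p = 5.3e-06).

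**Figure D2:**
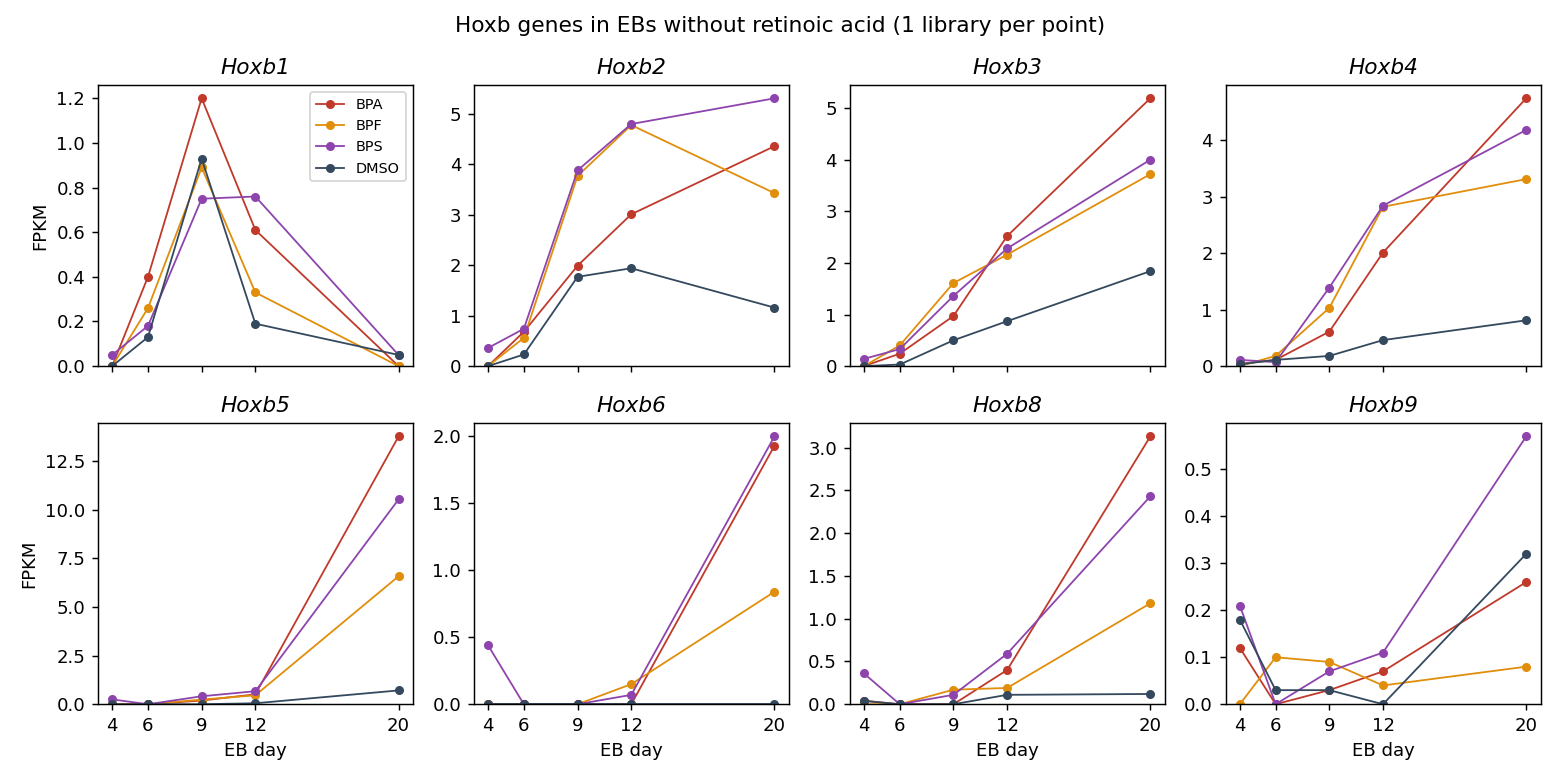
FPKM of 8 Hoxb genes against the day of EB culture without retinoic acid, each point 1 library and each line a treatment, with a linear axis of its own for each gene. Hoxb1 is highest at day 9 in 3 of the 4 treatments and near 0 at day 20, Hoxb2 to Hoxb4 climb from days 6 to 9 on, and Hoxb5, Hoxb6 and Hoxb8 climb between days 12 and 20 with the bisphenols.

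RA EBs of day 8 were set against EBs of similar age, days 6 and 9. In all, 25 Hox genes were higher and 1 was lower, of 28 tested, where 8.09% of all genes were higher and 10% lower. Hoxa6, Hoxa7, Hoxb6, Hoxb7, Hoxc5, Hoxc6, Hoxc8, Hoxd1 and Hoxd4 passed the filter only through the neural branch. Their part of this count was largely set by the filter. The median log2 change was 6.94 for the 28 and -0.01 for all genes. Against EB day 4, 25 were likewise higher and 1 lower (18.8% and 15.5% of all genes), with a median of 8.29 against 0.03. The 2 comparisons share the RA EB libraries.

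The level reached in RA EBs differed along each cluster. Hoxb8, a gene of thoracic levels, had 209, 215, 216 and 232 FPKM in RA EBs with BPA, BPF, BPS and DMSO, against a mean of 0 at EB day 6 and 0.07 FPKM at day 9 (11.78 ± 0.36, adjusted p = 4.8e-16). Hoxb5 had 156, 173, 197 and 142 FPKM in the same order (10.55 ± 0.43). Hoxb6 averaged 143 ± 4.6 FPKM and had no counts at EB days 6 and 9, so that it was at least 5461-fold higher against a floor of 3 counts over that group. Hoxa5, which patterns the neck and lung, had 125, 121, 138 and 121 FPKM (10.26 ± 0.33). Hoxc5 averaged 73.4 ± 4.56 FPKM (10.54 ± 0.22) and Hoxb9 97.6 ± 23.8 FPKM (10.21 ± 0.21). For these 6 genes, as for every Hox gene called higher, each RA EB library was above all 8 EB libraries of days 6 and 9. Hoxb6 and Hoxc5 passed the filter only through the neural branch, so their calls were largely set by it.

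The changes were smaller for some genes toward the ends of the clusters, but not for Hoxc4 at the 3′ end of Hoxc. Hoxd8 and Hoxc8, which lie further in, changed less than Hoxb13. Hoxb1 averaged 7.82 ± 1.32 FPKM in RA EBs and was higher by 3.87 ± 0.23, while Hoxd9 averaged 0.633 ± 0.186 FPKM and was higher by 2.16 ± 0.38. Hoxb13, at the far 5′ end of its cluster, had 2.26, 2.11, 2.22 and 1.35 FPKM, against no counts at EB days 6 and 9, and was at least 74.6-fold higher. Hoxc13 was lower, at 0.05 ± 0.038 FPKM (-1.26 ± 0.47, adjusted p = 0.024), a call lost without BPF or without BPS. Of the 10 genes under the filter, Hoxc9 had the highest mean in RA EBs, at 0.625 ± 0.158 FPKM, and Hoxa11, Hoxc11, Hoxd10 and Hoxd12 were listed in none of the 8 libraries of RA EBs and NPCs.

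Each cluster had a step at which levels dropped steeply. In Hoxa the mean of Hoxa7 was 63.1 times that of Hoxa9 in NPCs and 52.7 times in RA EBs, 7.13 against 0.113 FPKM and 3.95 against 0.075 FPKM, across a gap of 4.5 kb between the genes. In Hoxc the step lay between Hoxc6 and Hoxc8, with 43.0 and 0.108 FPKM in NPCs and 23.4 and 0.91 FPKM in RA EBs, ratios of 398 and 25.7. In RA EBs the ratio of Hoxc9 to Hoxc10 was larger still, between levels of 0.625 and 0.0125 FPKM. In Hoxb the step lay between Hoxb9 and Hoxb13, which are 74.7 kb apart, with ratios of 3150 in NPCs and 49.3 in RA EBs. Hoxb13 averaged 0.04 FPKM in NPCs and 1.98 FPKM in RA EBs, so the NPC ratio rests on a level near the detection floor. Hoxd levels stepped down at 2 places, 6.95-fold in NPCs and 9.93-fold in RA EBs between Hoxd4 and Hoxd8, and 11.8-fold and 8.91-fold between Hoxd8 and Hoxd9. At each of these steps the 3′ gene was higher in all 4 libraries of both stages. On the 3′ side the order was not smooth, since Hoxb7 averaged 37.8 FPKM in NPCs and 15.9 FPKM in RA EBs between Hoxb6 (146 and 143 FPKM) and Hoxb8 (287 and 218 FPKM). Hoxb1 lay 89.5-fold below Hoxb2 in NPCs and 15.2-fold below it in RA EBs. From Hoxa3 through Hoxa4 to Hoxa5 levels rose toward the 5′ side, with 21.6, 49.0 and 121 FPKM in NPCs and 45.7, 69.8 and 126 FPKM in RA EBs.

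Spearman's rho of mean level with paralog number was -0.70 in NPCs and -0.71 in RA EBs over the 38 genes. Within clusters it was -0.84 and -0.84 in Hoxa, -0.86 and -0.90 in Hoxc, -0.80 and -0.79 in Hoxd, and 0.12 and 0.03 in Hoxb, whose levels stayed high to paralog 9. The negative value of Hoxa comes from the low levels from Hoxa6 on, since levels rose from Hoxa3 to Hoxa5. These values describe genes of the same libraries. Hoxb genes made up 1048 ± 71.1 FPKM in NPCs and 880 ± 37.8 FPKM in RA EBs, Hoxc 286 ± 3.56 and 212 ± 14.5 FPKM, Hoxa 261 ± 16.2 and 282 ± 18.1 FPKM, and Hoxd 76.2 ± 10.2 and 90.2 ± 5.37 FPKM. Paralogs 4 to 8 summed to 1263 ± 47.1 FPKM in NPCs and 1073 ± 44.9 FPKM in RA EBs, the largest of the 3 groups at both stages.

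**Figure D3:**
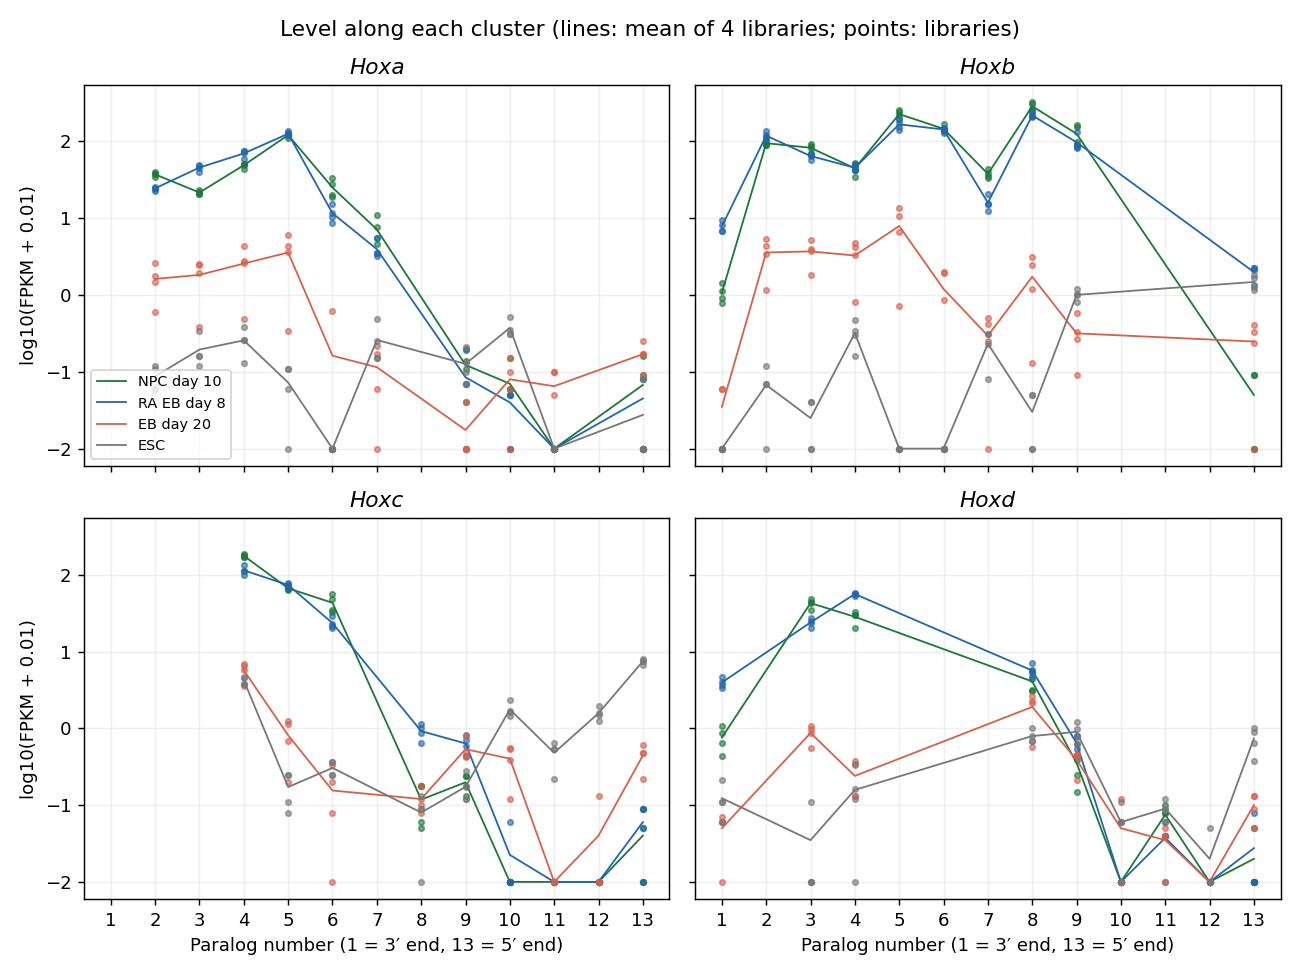
Level of each Hox gene against its paralog number in the 4 clusters, on a log10 scale with 0.01 added to each FPKM, so that a gene listed at 0 sits at -2. Points are libraries and lines join stage means for NPCs, RA EBs, EB day 20 and ESCs, and the neural stages drop after paralog 7 in Hoxa, 9 in Hoxb, 6 in Hoxc and 8 in Hoxd, while the ESC line is highest at paralog 13 in Hoxc.

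Between RA EBs and the NPC monolayer Hoxb1 and Hoxd1, at the 3′ ends of their clusters, fell, and Hoxa6 and Hoxb7 rose. In all, 2 genes were higher and 5 lower in NPCs, of 28, where 17.8% of all genes were higher and 17% lower, so that the share of lower Hox genes was near that of all genes, and 16 Hox genes had an unadjusted p under 0.05. Hoxb1 had 1.44, 1.11, 0.77 and 0.91 FPKM in NPCs with BPA, BPF, BPS and DMSO, against 6.77, 6.80, 8.17 and 9.53 FPKM in RA EBs (-2.78 ± 0.27, adjusted p = 7.4e-10). Hoxd1 averaged 0.748 ± 0.275 FPKM in NPCs and 3.94 ± 0.55 FPKM in RA EBs (-2.25 ± 0.34, adjusted p = 1.1e-06). Of the genes beyond the steps 2 were lower, Hoxb13 at 0.04 ± 0.046 FPKM in NPCs and 1.98 ± 0.43 FPKM in RA EBs (-4.18 ± 0.53), and Hoxc8 at 0.108 ± 0.072 and 0.91 ± 0.207 FPKM (-2.64 ± 0.49), while Hoxd9 (-0.73 ± 0.41), Hoxc10 (-0.31 ± 0.34) and Hoxc13 (-0.28 ± 0.58) were not called. Hoxa3 averaged 21.6 ± 1.24 FPKM in NPCs and 45.7 ± 4.23 FPKM in RA EBs (-1.01 ± 0.19), and was not called with RLE scaling, with DESeq2 or without BPS.

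Hoxb7 had 43.4, 39.0, 33.5 and 35.3 FPKM in NPCs with BPA, BPF, BPS and DMSO, against 15.2, 12.5, 15.3 and 20.6 FPKM in RA EBs (1.33 ± 0.19, adjusted p = 9.7e-07). Hoxa6 had 33.3, 20.0, 18.9 and 28.2 FPKM in NPCs, against 11.7, 10.4, 8.70 and 15.4 FPKM in RA EBs (1.17 ± 0.27, adjusted p = 0.0014). Under a log2 change of 1 but with an adjusted p under 0.05 were Hoxc6 (0.94 ± 0.15), Hoxd3 (0.90 ± 0.14), Hoxa7 (0.88 ± 0.27), Hoxc4 (0.71 ± 0.11), Hoxa2 (0.68 ± 0.16), Hoxb9 (0.44 ± 0.14) and Hoxb3 (0.42 ± 0.17), all higher in NPCs, and Hoxd4 (-0.93 ± 0.16), which was lower. Counts were whole numbers in 33.3% of the libraries that list Hoxa6, 14.3% for Hoxb9 and 0% for Hoxc8, against 100% for 26 of the 38 genes. The levels of these 3 thus rest on reads divided between genes by estimation. In part this holds too for Hoxd11 (23.8%), Hoxd3 (50%), Hoxa3 (64.3%), Hoxb4 (64.5%), Hoxb3 (70.4%) and Hoxb6 (78.6%), and less so for Hoxb7, Hoxa7 and Hoxa13.

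At the ends of the branches, NPCs had 22 Hox genes higher and 3 lower than EBs of day 20, of 28, where 9.86% of all genes were higher and 23.6% lower. Hoxb9 had 162, 99.1, 91.1 and 153 FPKM in NPCs with BPA, BPF, BPS and DMSO, against 0.26, 0.08, 0.57 and 0.32 FPKM at EB day 20 (8.73 ± 0.24, adjusted p = 6.2e-20). Hoxc6 was higher by 7.86 ± 0.25 and Hoxb8 by 7.60 ± 0.34. The calls of Hoxc6 and of the other genes that passed the filter only through the neural branch were largely set by it. The difference was 5.17 ± 0.35 for Hoxb5, the Hox gene with the highest mean at EB day 20, and it was smallest among the higher genes for Hoxd8 (1.36 ± 0.32), Hoxd1 (3.24 ± 0.50) and Hoxa3 (3.81 ± 0.24). Hoxc10 and Hoxc13 were lower in NPCs (at least 9.94-fold for Hoxc10, which had no counts there, and -2.57 ± 0.52 for Hoxc13). Hoxb13 was the other (-1.32 ± 0.60), a call lost without BPA, BPF or DMSO, without the filter and with DESeq2. Against EBs of days 9 and 12, closer to NPCs in age, 22 were higher and 2 lower (16.1% and 22% of all genes).

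Noncoding RNAs of the clusters were higher in RA EBs as well. Of 18 noncoding genes of the clusters 12 were listed and 7 tested. All 7 were higher in RA EBs than at EB days 6 and 9, where 8.09% of all genes were higher. The 12 summed to 270 to 366 FPKM in RA EBs and 0.5 to 0.64 FPKM at EB day 6. Where such a gene passed the filter only through the neural branch, its call was largely set by the filter. Hoxb5os, which runs antisense to Hoxb5 and Hoxb6, had 152, 118, 121 and 177 FPKM in RA EBs with BPA, BPF, BPS and DMSO, against 0, 0.17, 0.17 and 0 FPKM at EB day 9 (9.41 ± 0.31, adjusted p = 4.8e-16). Hoxaas3 was higher by 7.79 ± 0.27, Hoxaas2 by 7.21 ± 0.22 and Haglr by 6.55 ± 0.27. In NPCs 4 of the 7 were lower than in RA EBs and none was higher, where 17% of all genes were lower and 17.8% higher. Hoxb5os then had 21.4, 9.40, 11.0 and 31.6 FPKM (-2.96 ± 0.24, adjusted p = 5.4e-10), Hoxd3os1 changed by -3.70 ± 0.36, Hoxaas3 by -1.96 ± 0.21 and Hotairm1 by -1.49 ± 0.25. Hoxb5 and Hoxb6 were not called in that comparison (0.52 ± 0.28 and 0.10 ± 0.21). Whether strand was used in counting is not given in the sources used here, and 16 of the 38 Hox genes overlap another annotated gene, so reads of Hoxb5, Hoxb6 and Hoxb5os cannot be told apart where they overlap.

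Genes that act with or before the Hox proteins were counted in lists. Of all genes 8.09% were higher and 10% lower in RA EBs than at EB days 6 and 9. In NPCs against RA EBs the shares were 17.8% and 17%. Of 9 partners of the PBX, MEIS and PKNOX families, which bind DNA together with Hox proteins, 4 were higher in RA EBs than at EB days 6 and 9 and 1 was lower, with Meis1 at 44.8 ± 2.89 FPKM in RA EBs (3.36 ± 0.10) and Meis2 at 55.0 ± 2.73 FPKM (1.88 ± 0.12). In NPCs 4 of the 9 were higher again and none was lower, led by Pbx3 (2.0 ± 0.07). Of 18 genes of retinoic acid handling and response, 10 were higher in RA EBs and 4 lower, and 2 were higher and 10 lower in NPCs than in RA EBs. Cyp26a1, which degrades retinoic acid, averaged 0.902 ± 0.473 FPKM in NPCs and 102 ± 13.4 FPKM in RA EBs (-6.73 ± 0.48, adjusted p = 1.2e-11), and Cyp26b1 0.372 ± 0.135 and 115 ± 17.6 FPKM (-8.13 ± 0.26). Among regulators known to act upstream of Hox genes, Gdf11 was higher in RA EBs (1.83 ± 0.15) and Fgf8 was lower (-7.00 ± 0.36). The 17 chromatin regulators of the Polycomb and Trithorax kind had a median log2 change of 0.14 there, and in NPCs 1 of them, Cbx2, was lower than in RA EBs (-1.32 ± 0.08). Of 15 forebrain and midbrain genes 9 were lower and 1 higher, Otx2 with 1.85 ± 0.60 FPKM in RA EBs (-5.89 ± 0.20, adjusted p = 6.4e-18).

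Among the genes that flank the clusters, 7 of 19 were higher in RA EBs than at EB days 6 and 9 and 1 was lower. The shares of all genes were 8.09% and 10%, and the median log2 change of the flanking genes was 0.09. Skap2, next to Hoxa, was higher by 2.97 ± 0.08 and Skap1, next to Hoxb, by 2.12 ± 0.28. Evx1, the homeobox gene beyond the 5′ end of Hoxa, had 13.3, 12.8, 12.5 and 12.9 FPKM in NPCs with BPA, BPF, BPS and DMSO, against 1.84, 1.86, 1.65 and 2.29 FPKM in RA EBs (2.81 ± 0.22, adjusted p = 2.9e-12), although Hoxa9 to Hoxa13, which lie between it and Hoxa7, averaged at most 0.113 FPKM there. Evx2, which lies beyond Hoxd13, had 4.64, 5.21, 3.89 and 3.42 FPKM in NPCs, against 0.04, 0.13, 0 and 0.18 FPKM in RA EBs (5.44 ± 0.44, adjusted p = 1.5e-10).

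The study's other question was what the bisphenols do. The compounds differ in the bridge between their phenol rings, which is a carbon carrying methyl groups in BPA, a methylene in BPF and a sulfonyl in BPS. Taken over all 8 stages, 1 of 28 Hox genes was called between bisphenols and DMSO (adjusted p under 0.05), where 3.01% of all genes were. That gene was Hoxb4, higher by 0.73 ± 0.20 (adjusted p = 0.043), a call kept in 5 of 17 alternatives and lost when any 1 of BPA, BPF and BPS was left out. An unadjusted p under 0.05 was found for 9 Hox genes, and DESeq2 called 2, Hoxb4 not among them. The branches were therefore taken apart.

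In EBs of the global branch Hox RNA was higher with bisphenols. Of 25 tested Hox genes 12 were higher with bisphenols than with DMSO and none was lower, where 9.38% of all 15084 genes tested were higher and 10.5% lower, with a median log2 difference of 0.88 for the 25 and -0.03 for all genes. The sum of Hox genes was 63.4, 43.0 and 54.2 FPKM at EB day 20 with BPA, BPF and BPS, against 15.2 FPKM with DMSO. At day 12 it was 18.9, 19.7 and 21.8 FPKM, against 8.00 FPKM with DMSO, and at day 9 it was 7.93, 11.1 and 11.4 FPKM, against 6.69 FPKM. DMSO was the lowest of the 4 treatments at each of these days.

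The 12 genes were of paralogs 2 to 8. Hoxb5 had 13.8, 6.58 and 10.5 FPKM at EB day 20 with BPA, BPF and BPS, against 0.71 FPKM with DMSO, and the difference over the global branch was 3.46 ± 0.39 (adjusted p = 1.4e-05). Hoxa5 had 5.97, 3.62 and 4.38 FPKM, against 0.33 FPKM with DMSO (2.95 ± 0.32, adjusted p = 1.6e-06). Hoxb8 had 3.13, 1.18 and 2.43 FPKM, against 0.12 FPKM (2.82 ± 0.54, adjusted p = 0.0019). Each bisphenol library was above DMSO for these 3 genes, by a factor that differed between compounds. Hoxb6 had 1.93, 0.84 and 2.0 FPKM at that day with BPA, BPF and BPS and was not listed with DMSO (2.60 ± 0.46, adjusted p = 0.00087). Hoxa4 was higher by 2.20 ± 0.34 and Hoxb4, a gene of the hindbrain to spinal cord boundary, by 2.15 ± 0.24, with 4.74, 3.31 and 4.18 FPKM at day 20 against 0.81 FPKM with DMSO. The other 6 were Hoxc5 (1.67), Hoxa3 (1.61), Hoxd8 (1.33), Hoxb3 (1.31), Hoxb2 (1.2) and Hoxc4 (0.57). Without EB day 20, 7 genes were called: Hoxb6, Hoxb8, Hoxc4, Hoxc5 and Hoxd8 were lost, and Hoxa3, Hoxa4, Hoxa5, Hoxb2, Hoxb3, Hoxb4 and Hoxb5 were kept under all 15 alternatives. With limma on log2(FPKM + 1) 7 were called.

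In single stages, where the lone DMSO library is assumed to vary like the others, none of 28 Hox genes was called in ESCs (0% of all genes), at EB day 4 (0.653%) or at EB day 6 (2.51%). With an unadjusted p under 0.05 there were 1, 2 and 1, DESeq2 called none at these stages, and at EB day 6 1 gene was called without BPA. At EB day 9, 2 were higher and none lower (7.24% of all genes in either direction), Hoxb4 by 2.25 ± 0.60 (adjusted p = 0.02) and Hoxb3 by 1.35 ± 0.40 (adjusted p = 0.034). Both calls were lost without BPS, and that of Hoxb3 without BPF. At EB day 12, 6 were higher and none lower (18.4%): Hoxa3, Hoxa4, Hoxa5, Hoxb3, Hoxb4 and Hoxc5. The Hox counts of days 9 and 12 are near the shares of all genes in either direction, but every Hox call was higher. Of all 15632 genes 595 were higher and 536 lower at day 9, and 1520 were higher and 1362 lower at day 12. A comparison with the higher genes alone would be chosen after the direction was seen, and at day 9 it would rest on 2 genes. At EB day 20, 14 were higher and none lower (19.6%), which adds Hoxa2, Hoxb2, Hoxb5, Hoxb6, Hoxb7, Hoxb8, Hoxc4 and Hoxd8. At day 20, 14, 11 and 13 Hox genes reached 1 FPKM with BPA, BPF and BPS, against 3 with DMSO. At day 12 there were 6 with each bisphenol, against 2 with DMSO, and at day 9 there were 2, 3 and 3, against 2. Paralogs 9 to 13 summed to 1.91, 2.77 and 2.90 FPKM at day 20, against 3.43 FPKM with DMSO.

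**Figure D4:**
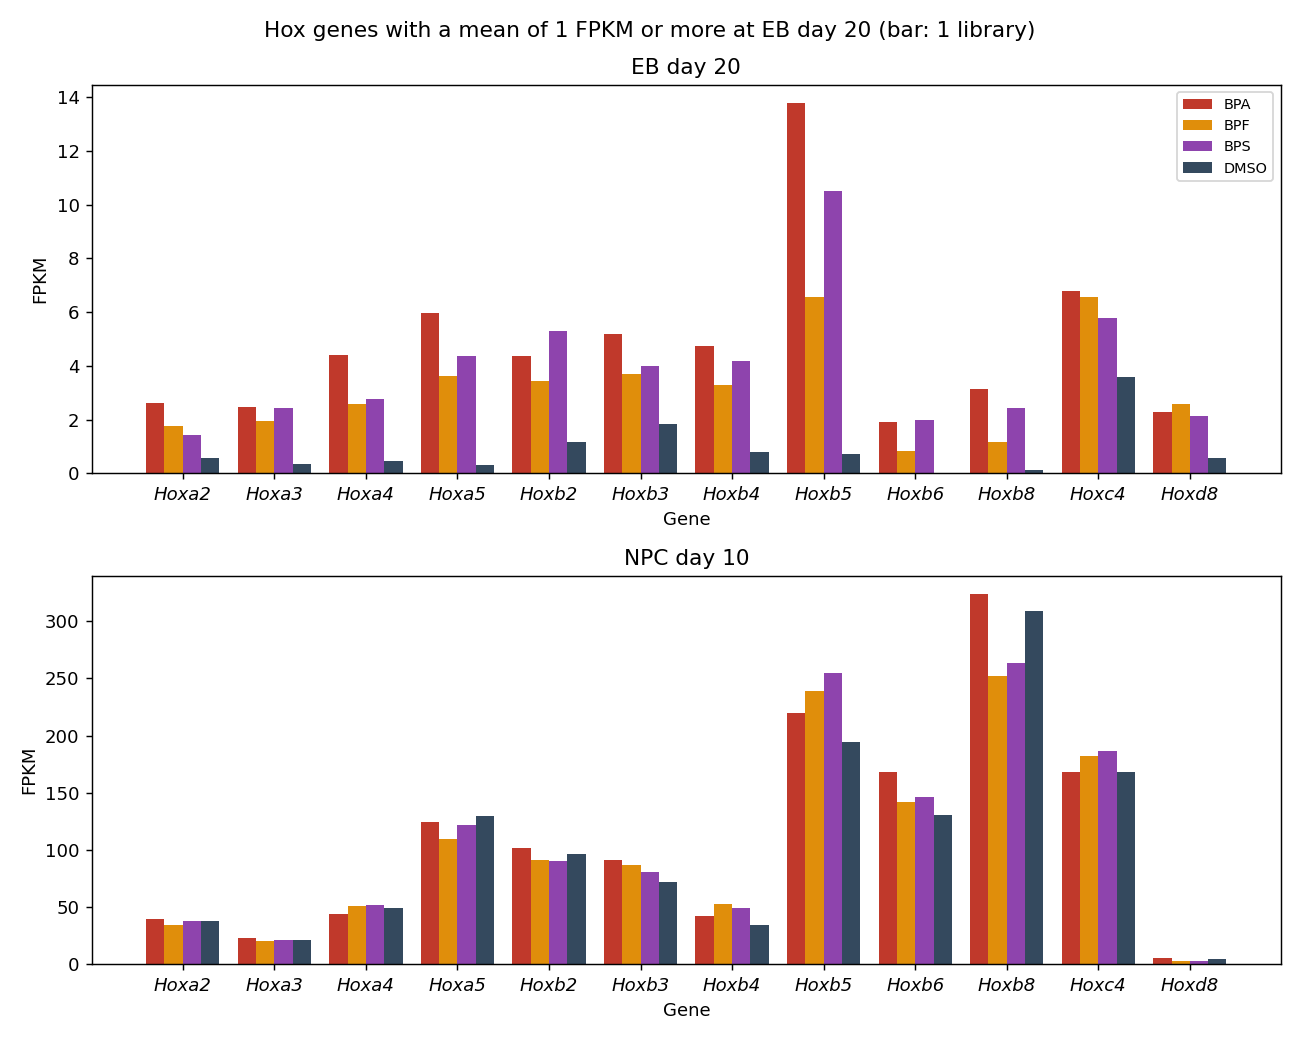
FPKM of the 12 Hox genes that averaged at least 1 FPKM at EB day 20, at that stage (top) and in NPCs (bottom), each bar 1 library. At EB day 20 the BPA, BPF and BPS bars are above the DMSO bar, but the mean that picked the genes includes the bisphenol libraries, and 3 of the 12 reach 1 FPKM with DMSO. In NPCs, on an axis that is much longer, all 3 bisphenol bars are above the DMSO bar for 4 of the 12 genes, Hoxb3 to Hoxb6.

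The EBs with bisphenols differed from DMSO EBs in marker RNAs of other cell types too. The 9 mesenchyme markers summed to 1714, 2041 and 2009 FPKM at EB day 20 with BPA, BPF and BPS, against 211 FPKM with DMSO, and at day 12 to 875, 1034 and 784 FPKM, against 53.9 FPKM. At day 9 the sums were 437, 514 and 558 FPKM, against 413 FPKM, and at day 6 they were lower with bisphenols, at 479, 451 and 316 FPKM, against 790 FPKM. Over the global branch 3 of the 9 were called higher and none lower, where 9.38% of all genes were higher and 10.5% lower. The 8 markers of lateral mesoderm and limb summed to 42.5, 53.9 and 60.4 FPKM at day 20, against 22.6 FPKM, and 6 of the 7 tested were higher in the global branch and none lower. The 7 cardiac markers summed to 52.7, 167 and 397 FPKM at day 12, against 5.73 FPKM with DMSO. The 10 neuron markers ran the other way, with 1061, 903 and 941 FPKM at day 20, against 1220 FPKM, 8 lower in the global branch and none higher. The 9 markers of spinal motor neurons, of which Aldh1a2 is also a retinoic acid gene, summed to 27.2, 26.3 and 26.1 FPKM at day 20, against 12.6 FPKM with DMSO. Most of that difference was Aldh1a2, whose day 20 values are given below. At day 12 the sums were 26.8, 30.1 and 34.3 FPKM, against 14.4 FPKM. Of these markers 3 were higher in the global branch and 1 was lower. The 15 forebrain and midbrain genes summed to 219, 197 and 189 FPKM at day 12, against 320 FPKM with DMSO, 9 lower and 1 higher. Of 18 retinoic acid genes 9 were higher and 2 lower. Rarb, a retinoic acid receptor that is itself induced by the signal, was higher by 1.72 ± 0.25 and Aldh1a1 by 2.42 ± 0.49, while the binding proteins Crabp1 (-0.57 ± 0.17) and Crabp2 (-0.72 ± 0.12) were lower. The summed FPKM of the 18 genes was lower with bisphenols at day 9 (621, 503 and 482, against 874 with DMSO), as at days 6 and 12, and higher at day 20 (205, 219 and 209, against 127). Aldh1a2, which makes retinoic acid, had 13.5, 11.2 and 12.5 FPKM at day 20, against 0.69 FPKM with DMSO, and was not called over the branch (1.22 ± 0.51, adjusted p = 0.1). Among noncoding RNAs of the clusters Hoxaas2 (1.31 ± 0.19) and Hotairm1 (1.3 ± 0.30) were higher, and of the 9 Hox partners none was higher and 2 were lower. The part of these cell types and of the retinoic acid genes in the Hox result was not tested.

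In the neural branch, where Hox levels were far higher, no Hox gene was called in the same test (0.0199% of all genes were called). An unadjusted p under 0.05 was found for 5, and DESeq2 called none. They were Hoxb9 (-0.49 ± 0.16, adjusted p = 0.33), Hoxc6 (-0.47 ± 0.16), Hoxa7 (-0.76 ± 0.28), Hoxb4 (0.33 ± 0.14) and Hoxb5 (0.32 ± 0.15). The Hox sum in NPCs was 1792, 1606 and 1638 FPKM with BPA, BPF and BPS, against 1650 FPKM with DMSO, and in RA EBs 1439, 1390 and 1521 FPKM, against 1505 FPKM. Of 21 genes that averaged at least 1 FPKM in NPCs 7 had every bisphenol library above DMSO and 3 had every one below, and of 23 in RA EBs 5 were above and 11 below. In single stages Hoxd4 was called in NPCs, 1 of 28 where 2.07% of all genes were called, with 30.2, 30.3 and 32.7 FPKM, against 20.1 FPKM with DMSO (0.63 ± 0.17, adjusted p = 0.046). That call was lost with RLE scaling, without the filter, with limma on log2(FPKM + 0.1) and without BPF, and without BPA 5 Hox genes were called. In RA EBs none was called (2.37% of all genes), 3 had an unadjusted p under 0.05, DESeq2 called none, and without BPA 1 was called. Mesenchyme markers in NPCs summed to 253, 211 and 284 FPKM, against 582 FPKM with DMSO.

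The difference between the branches was tested in the same fit. The bisphenol difference was lower in the neural than in the global branch for 11 of 25 Hox genes and higher for none, where 4.59% of all genes were lower and 8.48% differed in either direction. They were Hoxb5 (-3.14 ± 0.43, adjusted p = 0.00039), Hoxa5 (-2.96 ± 0.34, adjusted p = 2.1e-05), Hoxb8 (-2.93 ± 0.57), Hoxb6 (-2.47 ± 0.46), Hoxa4 (-2.20 ± 0.36), Hoxb4 (-1.82 ± 0.28), Hoxd8 (-1.62 ± 0.45), Hoxa3 (-1.59 ± 0.29), Hoxc5 (-1.51 ± 0.39), Hoxb2 (-1.33 ± 0.23) and Hoxb3 (-1.17 ± 0.19). With limma the count was 3 at either pseudocount, and Hoxb2 and Hoxb3 kept their calls under all 15 alternatives. Without EB day 20 the count was 6. The branches also differ in retinoic acid, culture form and age, which cannot be told apart here.

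**Figure D5:**
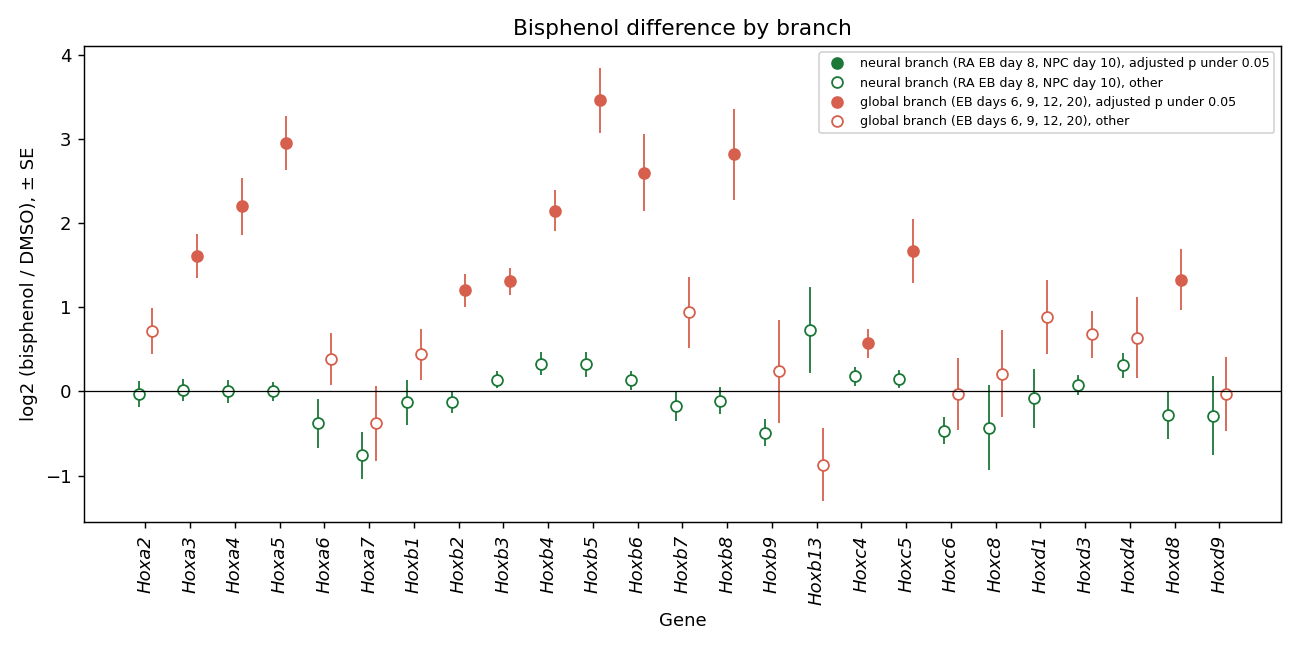
Log2 difference of bisphenols over DMSO with its SE for the 25 Hox genes tested in both branches, neural (green) beside global (red), filled where adjusted p was under 0.05. The 12 filled points are all of the global branch, from 0.57 (Hoxc4) to 3.46 (Hoxb5), and the neural points run from -0.76 (Hoxa7) to 0.73 (Hoxb13).

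The 3 compounds were compared with each other over the 8 stages at the same dose. In the 3 pairs no Hox gene was called with p adjusted over all genes, where 0%, 0.0064% and 0% of all genes were called for BPF against BPA, BPS against BPA and BPS against BPF. None had an unadjusted p under 0.05, and DESeq2 called none. The largest difference was that of Hoxa6, lower with BPS than with BPA by 0.62 (-0.62 ± 0.32, adjusted p = 0.76). The median 95% interval of a difference, not adjusted for the number of genes, reached 0.51 to either side on the log2 scale. Differences smaller than this between compounds with these bridges were not detectable. Larger ones could be missed too, since calls used p adjusted over all genes. Against DMSO, BPA, BPF and BPS called no Hox gene over the stages (0.141%, 0.902% and 1.19% of all genes), with 3, 5 and 10 at an unadjusted p under 0.05 and none by DESeq2. Hoxb4 differed by 0.63 ± 0.24 with BPA, 0.70 ± 0.24 with BPF and 0.87 ± 0.24 with BPS. These 3 comparisons share the DMSO libraries.

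The order of the treatments in NPCs was compared gene by gene. Of 21 genes that averaged at least 1 FPKM, both BPA and DMSO were above both BPF and BPS in 8 (Hoxa5, Hoxa6, Hoxa7, Hoxb2, Hoxb8, Hoxb9, Hoxc6 and Hoxd8) and below both in 6 (Hoxa4, Hoxb4, Hoxb5, Hoxc4, Hoxd3 and Hoxd4). Hoxb9 had 162, 99.1 and 91.1 FPKM with BPA, BPF and BPS, against 153 FPKM with DMSO. In RA EBs both were above in 6 and below in 1 of 23 genes. With 1 library of each kind this has no replicate, and it was seen after the values were known.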

How the data were processed

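Each of the 32 libraries has a deposited table of expected counts and FPKM per gene, which the authors made, per the submitters' processing notes, with Bowtie2, HISAT and RSEM on mm10, with no roles or versions given. Genes below 0.01 FPKM are not listed and were set to 0. FPKM recomputed from the expected counts had a median ratio of 1.005 to the deposited FPKM, within 5% for 98.4% of values of 5 FPKM or more. Expected counts, 9574833 to 11070149 per library, were rounded and tested with edgeR 4.0.16 (R 4.3.3; quasi-likelihood, TMM, prior count 1, at least 1 CPM in at least 4 libraries, Benjamini-Hochberg over all genes). Stage comparisons fitted stage and treatment and needed an adjusted p under 0.05 and a log2 change of at least 1. Bisphenol comparisons needed the adjusted p. The branch fit used EB days 6 to 20, RA EBs and NPCs (24 libraries, 15084 genes). With 1 library per stage and treatment, the 3 bisphenols stand as replicates of their class. Nothing in the labels shows separate cultures, so the spread may be technical. Alternatives were RLE scaling, no filter, a 5 CPM filter, DESeq2 1.42.0, limma 3.58.1 on log2(FPKM + 1) or log2(FPKM + 0.1), no treatment term, each treatment or stage left out, and Hox genes that overlap no other Hox gene. Leaving out the EB day 4 BPS library was added after seeing the data. The tests were tried on simulated data. Genes were named by a rule: per comparison the called Hox genes of largest change with a mean of at least 1 FPKM, up to 6 in each direction, those that mark a position in a cluster, and up to 4 of each other list. Counts over the list of regulators upstream of Hox genes are not reported here. The members and lists were chosen with earlier results of these data known. Figures were drawn with matplotlib 3.10.9 in Python 3.11.15.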

Additional observations from a re-analysis of the deposited data

Results flagged for a closer look

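Among 40 sums of FPKM within a stage, those of each cluster and of all Hox genes, 7 had 1 library far from the other 3, where chance sets apart about 1 in 20 groups. At EB day 4 the BPS library was high for Hoxa (0.58 FPKM, against 0.06 to 0.1 FPKM) and Hoxb (2.0 FPKM, against 0.07 to 0.33 FPKM). The DMSO library was low for Hoxc (5.86 FPKM, against 8.83 to 8.95 FPKM) and Hoxd (1.81 FPKM, against 4.02 to 4.28 FPKM) at EB day 20, and for Hoxd in NPCs (60.9 FPKM, against 80.2 to 82.6 FPKM). The BPA library was high for Hoxa in ESCs (1.53 FPKM, against 1.23 to 1.28 FPKM) and for Hoxb in NPCs (1153 FPKM, against 1002 to 1025 FPKM).

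For 11 Hox genes the bisphenol difference was lower in the neural than in the global branch by edgeR's quasi-likelihood test of the difference itself. On the log2 scale the differences were -3.14 for Hoxb5, -2.96 for Hoxa5, -2.93 for Hoxb8, -2.47 for Hoxb6, -2.20 for Hoxa4, -1.82 for Hoxb4, -1.62 for Hoxd8, -1.59 for Hoxa3, -1.51 for Hoxc5, -1.33 for Hoxb2 and -1.17 for Hoxb3.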

How the results depend on the processing

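Treatment links the libraries of different stages and is a term of the stage comparisons. Without that term 14 genes were called for EB day 4 against ESCs (15) and 15 for day 20 against day 12 (14), and the counts of the other stage comparisons stayed as they were. Over all single Hox gene calls and alternatives, 2075 were kept, 189 lost and 0 reversed, 69 of the losses with limma on log2(FPKM + 1). That alternative called 5 genes for EB day 4 against ESCs (15 in the main test), 0 for day 6 against day 4 (4), 1 for day 9 against day 6 (8), 0 for day 12 against day 9 (4), 3 for day 20 against day 12 (14), 7 in the global branch (12), 1 in the neural branch (0), 3 for the branch difference (11), 2 in NPCs (1) and 1 in RA EBs (0). With 0.1 added, limma called 3 for the branch difference, 1 at EB day 6 (0) and 0 in NPCs. Over the stages, 0 genes were called without the filter, 2 at 5 CPM and 2 with DESeq2 (1). In NPCs RLE scaling and no filter gave 0. Hox genes overlapping no other Hox gene gave 1 for day 12 against day 9 and 4 for day 9 against day 6, with fewer genes counted. For the other moves the cause was not tested.

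With each treatment or stage left out in turn, counts ran from 10 to 15 for EB day 4 against ESCs, 1 to 4 for day 6 against day 4, 7 to 8 for day 9 against day 6, 2 to 5 for day 12 against day 9 and 12 to 13 for day 20 against day 12. They ran from 0 to 2 for bisphenols over the stages, 0 to 1 for BPS, 7 to 12 in the global branch and 6 to 12 for the branch difference, and at single stages 0 to 1 at EB day 6, 0 to 3 at day 9, 0 to 1 in RA EBs and 0 to 5 in NPCs. Leaving out the EB day 4 BPS library, chosen after seeing the data, left the counts with EB day 4 at 15, 4 and 26. Depth limits genes under 1 FPKM, since all Hox genes together had 19 to 79 counts per library at EB day 4.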
